A study of Rattus norvegicus with 6 samples.

Results

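Transcripts of 10 glycolysis genes were followed in kidneys of newborn Han:SPRD Cy rats, a strain with inherited polycystic kidney disease. The genes were Slc2a1, Hk1, Hk2, Pfkl, Pfkp, Aldoa, Pgk1, Eno1, Pkm and Ldha. They were chosen by name: a probe belonged to the set when the array's own gene name for it was one of these, with the older name Pkm2 taken for Pkm. The array carries 35561 gene names, and the rule gave 12 of its 41012 non-control probes, with 2 probes each for Hk1 and Eno1 and 1 for every other gene. No measured value entered this rule, but the genes were chosen with earlier results of these data known.

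The 6 groups of kidney RNA labelled with Cy5, 1 array each, came from Cy/Cy rats (homozygous for the Cy mutation), Cy/+ rats (heterozygous) and +/+ rats (wild type), at 7 and at 3 days of age. On every array Cy3 carried pooled +/+ kidney RNA of the same age, the reference. All animals were of the Han:SPRD strain, RNA came from the left kidney, and pools were used in both colours, with the number of animals per pool not stated in the labels. The ages were therefore the only repeats (n = 2 arrays per genotype), dyes were not swapped, and a p-value here speaks only to how far these arrays spread.

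Each array was read at 43379 spots, of which 65.0% to 74.8% were well above background in a given colour. Kidney markers were measured in every colour of the 4 mutant arrays, with 7 of 7 proximal tubule, 5 of 5 thick ascending limb and 6 of 6 collecting duct genes well above background. The Cy5 pools labelled +/+ went against their label. Their median log2 ratio to the +/+ reference was -3.24 at 7 days and -3.17 at 3 days over the proximal tubule markers, and 3.97 and 4.33 at those ages over the skeletal muscle markers. For that reason the mutant pools are set here against the Cy3 reference, and the arrays labelled +/+ are described last. All 7-day arrays lay on one slide and all 3-day arrays on another, so age and slide cannot be told apart, and neither can genotype and position on the slide.

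Glycolysis splits glucose into pyruvate, and lactate dehydrogenase can turn the pyruvate into lactate. In the mature kidney the proximal tubule makes glucose and burns fatty acids, while the distal nephron and the medulla use glycolysis. Growing, hypoxic and cystic epithelia are known for a high rate of glycolysis, which is driven in part through the hypoxia-inducible factors and Myc.

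The readout of each gene rests on a 60-base probe, and those on which the results below turn are shown, in rn3, the build that the file headers give. The Slc2a1, Aldoa and Pfkp probes carried the change with age, and the Eno1 pair is shown because the probes disagreed. No letters are marked, and for 2 of them the first 30 of 60 bases are given.
Slc2a1, first bases (chr5:139724005-139724064, plus strand): tctcctgtgcactgagggccagacaaacac
Aldoa (chr1:186121943-186122002, minus strand): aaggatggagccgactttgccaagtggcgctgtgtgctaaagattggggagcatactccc
Pfkp (chr17:74833468-74833527, plus strand): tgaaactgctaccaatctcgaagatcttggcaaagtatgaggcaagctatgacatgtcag
Eno1, brighter probe, first bases (chr5:167415552-167415612, plus strand): aatcatgtgatcagtctgaatcatggtttc
Eno1, other probe (chr5:167414958-167415368, plus strand): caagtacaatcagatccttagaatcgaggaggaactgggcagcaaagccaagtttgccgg
The other Eno1 probe spans 411 bases of the genome with its 60 bases, so its sequence is split there, and it lies upstream of the brighter one on the same strand. No annotation of rn3 was used here, so exons are not named.

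Both mutants stayed close to the reference for most of these genes. On the log2 scale, the 10 genes had a median of 0.01 in Cy/Cy (range -0.17 to 0.33) and of 0.10 in Cy/+ (range -0.22 to 0.37), against 0.005 over all 30880 probes tested in either genotype. Without Hk2, which was at background on these arrays, the medians of the other 9 were also 0.01 and 0.10. In Cy/Cy none of the 10 passed limma's test at a Benjamini-Hochberg adjusted p under 0.05, where 0.00648% of all probes were called, and 1 of the 10, Eno1, had an unadjusted p under 0.05. In Cy/+ Pfkp alone passed, higher than the reference, in a comparison that called 8.09% of all probes (4.74% higher and 3.35% lower). With arrays centred on the median and no loess, 8 of the 10 were called higher in Cy/Cy, where 32.8% of all probes were, and 9 of the 10 in Cy/+, where 40% were. The median of all probes stood at 0.171 in Cy/Cy and 0.189 in Cy/+ in that setting, and the median of the 10 genes was 0.27 and 0.49 above it. Between Cy/Cy and Cy/+ none of the 10 passed, where 0% of all probes were called, and 1 of the 10, Pfkp, had an unadjusted p under 0.05.

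**Figure D1:**
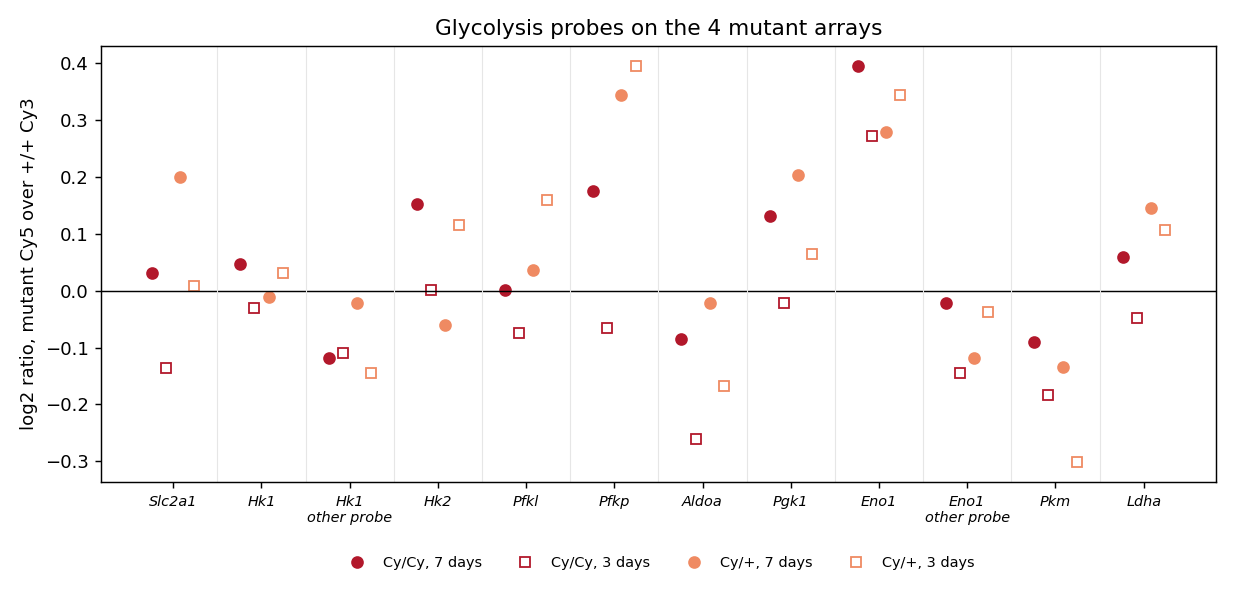
Log2 ratio of the mutant Cy5 pool to the Cy3 +/+ reference for the 12 glycolysis probes on the x axis, with Cy/Cy in red and Cy/+ in orange, filled circles for 7 days and open squares for 3 days. Ratios lie between -0.30 and 0.40, the brighter Eno1 probe is above 0 on all 4 arrays while the other Eno1 probe is below 0 on all 4, and Pfkp is higher on both Cy/+ arrays than on both Cy/Cy arrays.

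Slc2a1, the glucose transporter GLUT1 that lets glucose into most cells, is spotted 10 times on each array. Its log2 ratio was 0.03 at 7 days and -0.14 at 3 days in Cy/Cy, and 0.20 at 7 days and 0.01 at 3 days in Cy/+. The Cy/+ pool was the higher one at each age. The 10 spots of an array spread by an SD of 0.015 to 0.027 on the mutant arrays, less than the distance between the ages: in Cy/+ they ran from 0.18 to 0.23 at 7 days and from -0.02 to 0.04 at 3 days, without overlap. Spots of one array are not biological repeats, and over the arrays Slc2a1 was not called in Cy/Cy (-0.05 ± 0.09 SE, adjusted p = 0.871, limma) or in Cy/+ (0.10 ± 0.09 SE, adjusted p = 0.464, limma). With each array only centred on its median, without loess, the Cy/Cy value was 0.39.

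Hexokinases trap glucose in the cell as glucose 6-phosphate. Hk1, the form found in most tissues, had ratios on the log2 scale of 0.05 at 7 days and -0.03 at 3 days in Cy/Cy, and of -0.01 at 7 days and 0.03 at 3 days in Cy/+. No array stood apart, and the fitted mean was 0.01 ± 0.07 in Cy/Cy (SE, 95% interval -0.16 to 0.18) and 0.01 ± 0.07 in Cy/+ (SE, interval -0.16 to 0.18). Its other, dimmer probe gave -0.11 ± 0.07 in Cy/Cy and -0.08 ± 0.07 in Cy/+, also without a call. Hk2, the insulin- and hypoxia-responsive form of muscle and fat, was not well above background in any colour of the 4 mutant arrays. It was kept only through Cy5 of the arrays labelled +/+. Values of it on the mutant arrays, here and in the figures, are background readings and not kidney levels.

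Phosphofructokinase commits the sugar to glycolysis. Pfkp, the platelet-type subunit, had ratios on the log2 scale of 0.18 at 7 days and -0.07 at 3 days in Cy/Cy, and of 0.34 at 7 days and 0.40 at 3 days in Cy/+. Both Cy/+ arrays lay above both Cy/Cy arrays. The mean in Cy/+ was 0.37 ± 0.09 (SE, 1.29-fold, 95% interval 0.17 to 0.57, adjusted p = 0.0494, limma) and in Cy/Cy 0.05 ± 0.09 (SE, adjusted p = 0.861, limma). The Cy/+ call stands at the threshold: it held in 4 of 13 alternative settings, the adjusted p ranged from 0.000146 to 0.979, and it was lost when any 1 of the 4 mutant arrays was left out (adjusted p = 0.0728 to 0.179). The difference Cy/Cy minus Cy/+ was -0.31 ± 0.12 (SE, interval -0.60 to -0.03, adjusted p = 0.811, limma), so a difference between the genotypes was not shown. Pfkl, the liver-type subunit, measured 0.00 at 7 days and -0.07 at 3 days in Cy/Cy and 0.04 at 7 days and 0.16 at 3 days in Cy/+, with no call.

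Aldoa, the main aldolase of muscle and of growing tissue, had ratios on the log2 scale of -0.08 at 7 days and -0.26 at 3 days in Cy/Cy, and of -0.02 at 7 days and -0.17 at 3 days in Cy/+. All 4 arrays were below the reference, but the means of -0.17 ± 0.08 in Cy/Cy (SE, adjusted p = 0.611, limma) and -0.09 ± 0.08 in Cy/+ (SE, adjusted p = 0.497, limma) were not called, and without loess they were 0.44 and 0.66. Pgk1, phosphoglycerate kinase on the X chromosome, which makes ATP, had ratios of 0.13 at 7 days and -0.02 at 3 days in Cy/Cy and of 0.20 at 7 days and 0.06 at 3 days in Cy/+. In Cy/+ its 10 spots ran from 0.17 to 0.25 at 7 days and from 0.01 to 0.14 at 3 days, and in Cy/Cy from 0.11 to 0.18 and from -0.10 to 0.02 at those ages. The higher value thus fell on the 7-day array of each genotype.

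Eno1, the enolase of most tissues, was measured by 2 probes that did not give the same direction. Its brighter probe read 0.40 at 7 days and 0.27 at 3 days in Cy/Cy, and 0.28 at 7 days and 0.34 at 3 days in Cy/+. The other probe read -0.02 at 7 days and -0.14 at 3 days in Cy/Cy, and -0.12 at 7 days and -0.04 at 3 days in Cy/+. The brighter probe was thus above the reference and the other below it on all 4 arrays. Fitted means were 0.33 ± 0.08 in Cy/Cy (SE, adjusted p = 0.443, limma) and 0.31 ± 0.08 in Cy/+ (SE, adjusted p = 0.0539, limma) for the brighter probe, and -0.08 ± 0.08 in both for the other. On the arrays labelled +/+ the brighter probe also read above the other, at -0.11 against -0.37 at 7 days and 0.14 against -0.54 at 3 days. Genotype and dye run together on the mutant arrays, and the part of dye or probe in the split between the probes was not tested.

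Pkm, the pyruvate kinase gene of muscle and of growing cells, was below the reference on all 4 arrays: -0.09 at 7 days and -0.18 at 3 days in Cy/Cy, and -0.13 at 7 days and -0.30 at 3 days in Cy/+. The means were -0.14 ± 0.08 in Cy/Cy (SE, adjusted p = 0.651, limma) and -0.22 ± 0.08 in Cy/+ (SE, adjusted p = 0.132, limma), and without loess they turned to 0.38 and 0.41. Ldha, the lactate dehydrogenase subunit that favours lactate formation, measured 0.06 at 7 days and -0.05 at 3 days in Cy/Cy, and 0.14 at 7 days and 0.11 at 3 days in Cy/+. It was not called in Cy/Cy (0.01 ± 0.07 SE, interval -0.17 to 0.18) or Cy/+ (0.13 ± 0.07 SE, interval -0.05 to 0.30).

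With age, 3 of the 10 genes passed the test. Fitted over Cy/Cy, Cy/+ and reference samples with the pool kept as a term, Slc2a1, Aldoa and Pfkp fell at 7 days against 3 days, and none of the 10 rose. The comparison called 9.79% of all probes (4.33% lower, 5.46% higher). The median change of the 10 genes was -0.23 against 0.007 over all probes, and 8 of 10 values were below 0. These values include Hk2, and without it the median was -0.24 with 8 of 9 below 0. The reference values come from Cy3 of the arrays that also carry the mutant pools, so the 3 pools are not independent repeats.

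**Figure D2:**
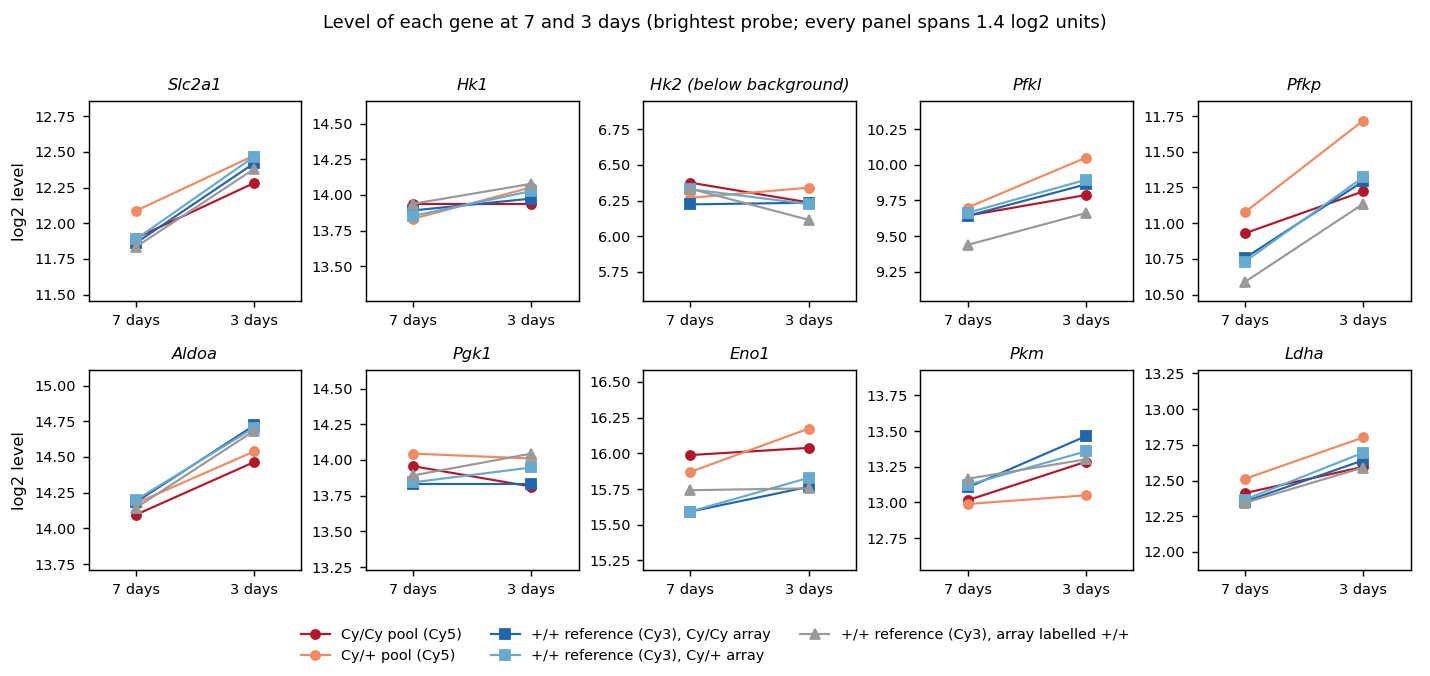
Log2 single-colour level of the brightest probe of each gene at 7 days (left) and 3 days (right), in Cy/Cy and Cy/+ pools (circles) and in the +/+ reference on the 3 arrays of an age (squares and triangles). Each panel spans the same 1.4 log2 units, and the Slc2a1, Pfkp and Aldoa lines run lower at 7 days in all 5 channels shown.

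Slc2a1 had a level of 3810 at 7 days and 4980 at 3 days in Cy/Cy, and of 4350 at 7 days and 5690 at 3 days in Cy/+ (normalized signal). In Cy3 the reference read 3650, 3790 and 3720 at 7 days, against 5330, 5660 and 5480 at 3 days. Every 7-day value was below every 3-day value. The change was -0.45 ± 0.07 (SE, log2, 1.36-fold lower, adjusted p = 0.0272, limma).

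Aldoa read 17500 at 7 days and 22600 at 3 days in Cy/Cy, and 18500 at 7 days and 23800 at 3 days in Cy/+. The reference read 18100, 18800 and 18600 at 7 days, against 26300, 26700 and 27000 at 3 days. Again no 7-day value reached a 3-day value, and the change was -0.42 ± 0.07 (SE, log2, 1.33-fold lower, adjusted p = 0.029, limma).

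Pfkp read 1950 at 7 days and 2390 at 3 days in Cy/Cy, and 2160 at 7 days and 3370 at 3 days in Cy/+. The reference read 1540, 1700 and 1730 at 7 days, against 2250, 2560 and 2510 at 3 days. The ages did not overlap, and the Cy/+ pool was the highest at both. Pfkp changed by -0.50 ± 0.09 (SE, log2, 1.42-fold lower, adjusted p = 0.0308, limma).

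**Figure D3:**
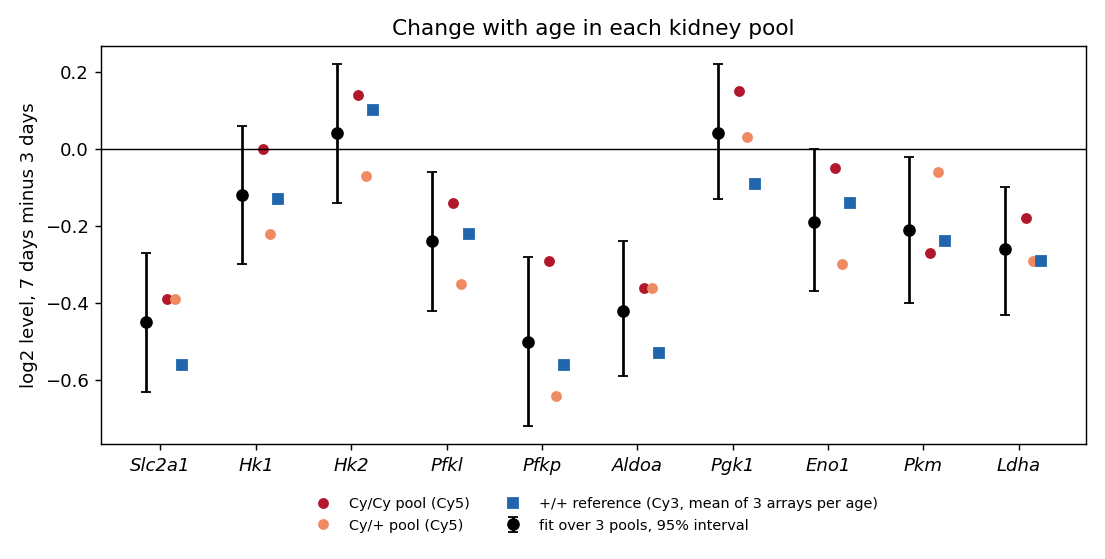
Log2 level at 7 days minus that at 3 days for the 10 genes, as the fit over 3 pools with its 95% interval (black) and in the Cy/Cy pool, the Cy/+ pool and the reference on their own. The intervals of Slc2a1, Pfkp and Aldoa lie below -0.24, those of Ldha, Pfkl and Pkm lie below 0, and those of Hk1, Pgk1 and Hk2, the last at background, include 0, while that of Eno1 reaches it.

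Of the others, Ldha was 0.26 lower on the log2 scale at 7 days (-0.26 ± 0.07 SE, adjusted p = 0.0649, limma), with 5450 at 7 days and 6190 at 3 days in Cy/Cy, 5840 and 7140 at those ages in Cy/+, and reference values of 5200 to 5280 at 7 days and 6170 to 6630 at 3 days. It missed the threshold although the ages did not overlap in any pool. Pfkl (-0.24 ± 0.07), Pkm (-0.21 ± 0.08), Eno1 (-0.19 ± 0.08 and -0.12 ± 0.07 for its 2 probes) and the brighter Hk1 probe (-0.12 ± 0.07) were not called. Pgk1 was not called either (0.04 ± 0.07 SE, 95% interval -0.13 to 0.22), and the other Hk1 probe pointed the other way (0.20 ± 0.07 SE, adjusted p = 0.106, limma).

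Among the genes without a call, Eno1 was read by its brighter probe at 65000 at 7 days and 67300 at 3 days in Cy/Cy, 59900 and 73900 at those ages in Cy/+, and 49400 to 54800 at 7 days and 55300 to 58200 at 3 days in the reference. Pkm read 8280 at 7 days and 9980 at 3 days in Cy/Cy, 8130 and 8480 in Cy/+, and 8810 to 9190 at 7 days and 10100 to 11300 at 3 days in the reference. In both genes each pool was lower at 7 days than at 3 days, and the Eno1 reference stayed under both mutants at either age. Hk1, by its brighter probe, read 15700 at both ages in Cy/Cy, 14600 at 7 days and 17000 at 3 days in Cy/+, and 14800 to 15700 at 7 days and 16100 to 17300 at 3 days in the reference. Pfkl read 800 at 7 days and 884 at 3 days in Cy/Cy, 832 and 1060 in Cy/+, and 694 to 811 at 7 days and 810 to 952 at 3 days in the reference. Pgk1 read 15900 at 7 days and 14400 at 3 days in Cy/Cy, 16900 and 16500 in Cy/+, and 14600 to 15200 at 7 days and 14600 to 16900 at 3 days in the reference. Its ages overlapped in the reference, and both mutant pools read higher at 7 days.

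The 3 calls depended on which pools were fitted. Without the Cy/Cy pools the adjusted p was 0.0565 for Pfkp, 0.0724 for Slc2a1 and 0.0793 for Aldoa, at changes of -0.60, -0.48 and -0.44, and without the reference pools it was 0.222, 0.221 and 0.238, at changes of -0.47, -0.39 and -0.36. With no normalization between arrays the median of all probes was -0.377, and relative to it Slc2a1 measured -0.66, Pfkp -0.69 and Aldoa -0.56, while Pgk1 measured -0.51, or -0.13 relative to it. In that setting 9 of the 10 genes were called lower, where 70.3% of all probes were.

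In Cy3 of all 6 arrays, 3 hybridisations of the +/+ reference at each age, 7 of the 10 genes had every 7-day value below every 3-day value, a pattern that 16.7% of all probes showed in that direction, and 0 of 10 had the reverse, which 19.3% of probes showed. Without Hk2, at background in Cy3, 7 of the other 9 were lower without overlap. None of the 10 reached the 2-fold change without overlap that 0.528% of probes reached in either direction (0.22% lower). Mean Cy3 changes were -0.56 for Slc2a1 and Pfkp, -0.53 for Aldoa, -0.29 for Ldha, -0.24 for Pkm, -0.14 for the brighter Eno1 probe and -0.13 for the brighter Hk1 probe. Left with the 2 mutant arrays of each age, 8 of the 9 genes measured in kidney were lower without overlap, where 35.2% of all probes were. Cy3 of the arrays labelled +/+ did not read like Cy3 of the mutant arrays. Its muscle markers summed to 45500 at 7 days and 24200 at 3 days, against 1220 to 1640 on the mutant arrays. Its liver markers summed to 15600 and 11300 at those ages, against 4410 to 6160, and its thick ascending limb markers to 258000 and 305000, against 137000 to 184000. The cause was not tested. The labels do not say whether the hybridisations of an age used one pool.

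Signals of different probes are not comparable in amount, so the genes are not ranked by level. Their profiles over the 8 colours of the mutant arrays were alike for some: the correlation with the mean of the 10 centred profiles was 0.992 for Ldha, 0.976 for Slc2a1, 0.974 for Pfkp and 0.957 for Pfkl, and 0.27 for Pgk1. The members enter their own mean, as does Hk2 at its background signal, and the 8 values share slides and pools. Among 6371 other named probes with at least as much spread, those most like the mean profile were Ptafr (r = 0.991), Yif1 (0.989), Mgst1 (0.987), Cp (0.986) and Tradd (0.986), over 8 values from 4 arrays.

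Promoter sequence was held for 9 of the 10 genes in the RefSeq table of build GRCr8, with 13 start sites, each covering 250 bases before and 50 after the start. They were searched on both strands for ACGTG, the core of the hypoxia response element, and for CACGTG, the E-box that Myc proteins bind, which contains ACGTG on each strand. ACGTG was present at 5 of the 13 starts (in Slc2a1, Ldha, Aldoa, Hk1 and Eno1), against 19.3% of 33469 promoters of the same length, and CACGTG in Ldha alone, against 6.42%. Shown are the 250 bases before the start of Slc2a1 and Pfkp, which fell with age, and of Ldha, whose known control by both factors makes it a landmark, with the motifs in capitals.
Slc2a1 (chr5:138002272-138002521, plus strand): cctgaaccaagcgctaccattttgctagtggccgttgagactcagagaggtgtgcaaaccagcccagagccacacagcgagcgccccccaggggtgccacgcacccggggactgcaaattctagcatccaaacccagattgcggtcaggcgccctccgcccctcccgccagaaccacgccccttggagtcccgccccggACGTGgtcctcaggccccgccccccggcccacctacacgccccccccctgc
Ldha (chr1:106507842-106508091, plus strand): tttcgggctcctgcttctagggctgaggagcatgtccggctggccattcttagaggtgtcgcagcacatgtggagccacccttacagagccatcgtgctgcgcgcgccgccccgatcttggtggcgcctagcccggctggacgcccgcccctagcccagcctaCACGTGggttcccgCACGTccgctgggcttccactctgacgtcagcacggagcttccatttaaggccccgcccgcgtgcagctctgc
Pfkp (chr17:68639563-68639812, plus strand): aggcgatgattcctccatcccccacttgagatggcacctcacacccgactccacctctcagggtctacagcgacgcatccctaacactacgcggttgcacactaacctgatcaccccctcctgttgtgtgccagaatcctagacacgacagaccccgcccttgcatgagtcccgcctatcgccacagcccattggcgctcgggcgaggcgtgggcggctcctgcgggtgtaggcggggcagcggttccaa
In Slc2a1 the motif starts at position -51, counted back from the start site. In Ldha the E-box starts at -87 and a further ACGTG, read on the other strand, at -73. The Pfkp window holds neither set of letters. A match is no proof of a bound site.

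Of 15 further glycolysis enzymes, 0 passed in Cy/Cy and 0 in Cy/+, and the median was -0.02 in each (0.38 in Cy/Cy and 0.52 in Cy/+ without loess). The largest change in Cy/Cy was that of Pgam2, the muscle phosphoglycerate mutase (-0.42 ± 0.16 SE, adjusted p = 0.552, limma). In Cy/+ the largest were those of the neuronal enolase Eno2 (-0.36 ± 0.10 SE, adjusted p = 0.0696, limma) and Pgam2 (-0.32 ± 0.16 SE). Only Aldoc passed with age among the 15, lower at 7 days (-0.47 ± 0.07 SE, adjusted p = 0.025, limma), and the median of the list was -0.09. Of all probes 4.33% were called lower with age.

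Carriers of glucose and lactate included called genes in Cy/+, where 4.74% of all probes were called higher. With age 5.46% of all probes were called higher and 4.33% lower. Of 6 other glucose transporters, Slc2a4, the insulin-responsive GLUT4 (0.83 ± 0.07 SE, adjusted p = 0.00702, limma), and the fructose carrier Slc2a5 (0.41 ± 0.09 SE, adjusted p = 0.0411, limma) rose in Cy/+. In Cy/Cy none of the 6 passed, and Slc2a4 measured 0.25 ± 0.07 (SE, adjusted p = 0.508, limma) and the liver form Slc2a2 0.29 ± 0.17 (SE). The difference of Slc2a4 between Cy/Cy and Cy/+ was -0.58 ± 0.11 (SE, adjusted p = 0.505, limma). Slc2a5 fell at 7 days against 3 days (-0.58 ± 0.09 SE, adjusted p = 0.0277, limma). Of 11 genes of lactate and pyruvate handling, the lactate carrier Slc16a1 (0.65 ± 0.10 SE) and the pyruvate dehydrogenase subunit Pdha1 (0.50 ± 0.08 SE) rose in Cy/+. In Cy/Cy 0 passed, with Slc16a1 at 0.36 ± 0.10 (SE) and the pyruvate carrier Mpc1 at 0.28 ± 0.10 (SE). With age the lactate exporter Slc16a3, or MCT4, fell (-0.88 ± 0.10 SE, 1.84-fold lower, adjusted p = 0.0187, limma) and Pdha1 rose (0.36 ± 0.07 SE, but -0.22 with no normalization between arrays, where the median of all probes was -0.377).

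Adipose markers were high on the 3-day Cy/+ array: the median log2 ratio of 5 markers was -0.12 at 7 days and 2.19 at 3 days in Cy/+, and 0.79 at 7 days and 0.57 at 3 days in Cy/Cy. Their summed Cy5 level was 1700 at 7 days and 10900 at 3 days in Cy/+, and 2800 and 3760 at those ages in Cy/Cy, against 1750 to 2580 in Cy3 of the 4 mutant arrays. All 5 were above the reference on the 3-day Cy/+ array and on both Cy/Cy arrays, and 1 of 5 on the 7-day Cy/+ array. None of the 5 was called in either genotype. Slc2a4, also a gene of fat and muscle, read 0.79 at 7 days and 0.86 at 3 days in Cy/+ (log2 ratio). The part of adipose tissue in the carrier results was not tested. Red cell markers were low in Cy/+, where 4 of 7 were called lower, against 3.35% of all probes. Their median there was -0.51 (Hbb, a globin, at -1.36 and the anion exchanger Slc4a1 at -1.01), and in Cy/Cy it was -0.22 with 0 called. Their summed Cy5 level was 15600 at 7 days and 20700 at 3 days in Cy/Cy and 11000 and 14100 at those ages in Cy/+, against 19700 to 20000 at 7 days and 29900 to 30600 at 3 days in the reference on the same arrays. Of 7 macrophage markers, Cd14 (0.52) and Lyz (0.47) rose in Cy/+, where 4.74% of all probes did, with a list median of 0.12. In Cy/Cy 0 passed. The part of these cells in any Cy/+ call given here was not tested.

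Of 4 gluconeogenesis genes, Fbp1 rose in Cy/+ (0.48 ± 0.10 SE, adjusted p = 0.0421, limma) and G6pc fell there (-0.74 ± 0.14 SE, adjusted p = 0.0347, limma), where G6pc read 0.04 without loess. Over all probes the Cy/+ comparison called 4.74% higher and 3.35% lower. In Cy/Cy neither passed (Fbp1 0.85 ± 0.10 SE, adjusted p = 0.267, limma, and G6pc -0.30 ± 0.14 SE). With age 0 of the 4 passed, where 9.79% of all probes were called. Pck1, the entry step of glucose production, measured -0.41 ± 0.14 (SE, adjusted p = 0.108, limma) and G6pc -0.19 ± 0.11 (SE). The 4 enzymes of fructose 2,6-bisphosphate, the allosteric activator of phosphofructokinase, gave 0 calls against the reference, between the genotypes or with age. With no normalization between arrays 3 of the 4 were called lower at 7 days, where 70.3% of all probes were. Without loess 1 was called higher in Cy/+, where 40% of all probes were. The largest changes with age in these were Pfkfb1 (0.15 ± 0.11 SE) and Pfkfb3 (-0.12 ± 0.07 SE), and in Cy/+ they were Pfkfb4 (-0.40 ± 0.14 SE, adjusted p = 0.123, limma) and Pfkfb2 (-0.23 ± 0.08 SE). In Cy/Cy Pfkfb4 measured -0.17 and Pfkfb3 0.04.

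Of 12 measured genes of the hypoxia response, P4ha1, a collagen prolyl hydroxylase (0.43 ± 0.08 SE, adjusted p = 0.0303, limma), rose and Vegfa, the endothelial growth factor (-0.56 ± 0.08 SE, adjusted p = 0.0193, limma), fell in Cy/+, with a median of 0.02. Of all probes 4.74% were called higher and 3.35% lower in Cy/+. In Cy/Cy none passed and the median was -0.01, with Ndrg1, a stress gene, at -0.31 ± 0.12 (SE) and P4ha1 at 0.27 ± 0.08 (SE). Vegfa differed by 0.47 ± 0.11 between Cy/Cy and Cy/+ (SE, adjusted p = 0.715, limma), which was not called. The comparison with age called 5.46% of all probes higher and 4.33% lower. With age P4ha1 (-0.88 ± 0.07 SE, adjusted p = 0.0148, limma) and the mTOR brake Ddit4 (-0.49 ± 0.09 SE, adjusted p = 0.0326, limma) fell, and Epas1, the hypoxia-inducible factor HIF-2 alpha, rose (0.47 ± 0.10 SE, adjusted p = 0.0454, limma, but -0.01 with no normalization between arrays), with a list median of 0.03. Among 5 genes of the Myc family, Mycn, which is active in nephron progenitors, rose 2.73-fold with age (1.45 ± 0.09 SE, adjusted p = 0.0118, limma), and none of the 5 passed in either genotype. Myc itself measured -0.33 ± 0.10 in Cy/Cy (SE, adjusted p = 0.514, limma) and -0.32 ± 0.10 in Cy/+ (SE, adjusted p = 0.0998, limma), beside Mycl1 at 0.14 in Cy/Cy and Mycn at -0.22 in Cy/+.

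**Figure D4:**
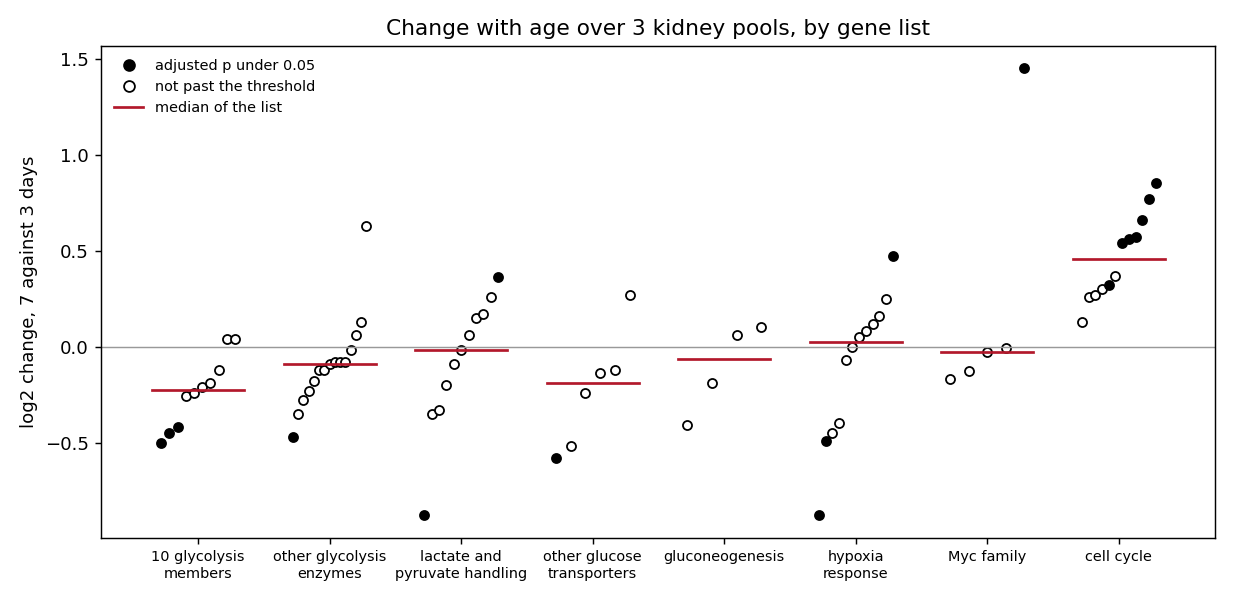
Log2 change, 7 against 3 days, over the 3 kidney pools for the members of 8 gene lists, filled where the adjusted p is under 0.05, with the list's median as a red bar. The glycolysis genes have a median of -0.23 and the cell cycle genes of 0.45.

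Genes of the cell cycle list rose with age, in a comparison that called 5.46% of all probes higher and 4.33% lower. Of its 12 genes 7 rose at 7 days and 0 fell, with a median of 0.45 (-0.11 with no normalization between arrays, which is 0.27 above the median of all probes there), led by Birc5 (0.85 ± 0.15 SE), Aurkb (0.77 ± 0.08 SE) and Mcm5 (0.66 ± 0.10 SE), with the cyclins Ccnb2 (0.57), Ccna2 (0.56) and Ccnb1 (0.54, but -0.02 with no normalization between arrays) behind them. In Cy/+ 5 of 12 rose, where 4.74% of all probes were called higher. They were led by Pcna (0.64 ± 0.07 SE, adjusted p = 0.0114, limma) and followed by Mcm6 (0.54), Ccnb1 (0.53), Aurkb (0.45) and Mcm2 (0.37), with a list median of 0.37. In Cy/Cy 0 passed with a median of 0.18 (Ccnb1 at 0.31 and Pcna at 0.30). Other cell types moved with age too: 3 of 7 red cell markers and 5 of 7 macrophage markers fell at 7 days, with medians of -0.49 and -0.55. The 5 adipose markers had a median of -1.11, with 0 above 0 and 0 called. The summed Cy3 level of the red cell markers on the mutant arrays was 19700 to 20000 at 7 days, against 29900 to 30600 at 3 days, and that of the macrophage markers 3250 to 3300, against 4840 to 4980. Mature red cells live on glycolysis, and the part of any of these cell types in the fall of Slc2a1, Aldoa and Pfkp was not tested. In bulk tissue, fewer cells of a type and less RNA per cell cannot be told apart.

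Between Cy/Cy and Cy/+ no gene of these lists passed. The log2 differences Cy/Cy minus Cy/+ furthest from 0 were -0.25 for Hk3, which was above background in 1 of the 8 colours, and -0.25 for Tpi1 among the other enzymes, 0.22 for both Pfkfb2 and Pfkfb4, and -0.31 for both pyruvate dehydrogenase subunits, Pdha1 and Pdhb. The kidney glucose reabsorber Slc5a2 measured 0.40 next to Slc2a4, and the glucose-producing enzymes Pck1 and Pcx 0.50 and 0.44. In the remaining lists Car9, a carbonic anhydrase, measured -0.18 next to Vegfa, Mycn 0.28 and Max -0.10, and the cell cycle genes Pcna -0.34 and Aurkb -0.30. The adjusted p of these differences was at least 0.505 (limma).

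Calls among the cell type markers were not part of the following check. Outside these markers and the 10 genes, 13 calls were named in Cy/+. Those of Slc2a4, Slc16a1 and Pcna held whichever mutant array was left out. Without the 3-day Cy/+ array 5 of the 13 held (adjusted p = 0.0124 to 0.212, limma), without the 7-day one 9 (0.00397 to 0.127), and without either Cy/Cy array 7 (0.0185 to 0.0775 over both). Of the 14 such calls with age, 14 held without the Cy/+ pools, 3 without the Cy/Cy pools (Slc16a3, P4ha1 and Mycn) and 0 without the reference (adjusted p = 0.0822 to 0.28, limma).

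On the arrays labelled +/+, Ldha, Aldoa and Pkm were above the reference at both ages. The log2 ratio of Cy5 to its own +/+ reference for Ldha was 1.38 at 7 days and 0.82 at 3 days, for Aldoa 1.15 at 7 days and 0.24 at 3 days, and for Pkm 0.67 at 7 days and 0.16 at 3 days. Pgk1 read -0.22 at 7 days and -0.54 at 3 days, and Pfkp 0.12 at 7 days and 0.60 at 3 days. Among the other enzymes the muscle enolase Eno3 read 3.63 at 7 days and 4.01 at 3 days, the muscle mutase Pgam2 3.47 at 7 days and 3.57 at 3 days, and the muscle phosphofructokinase Pfkm 2.39 at 7 days and 2.08 at 3 days. The enzymes Aldoc (2.20 at 7 days and 2.72 at 3 days) and Eno2 (2.14 at 7 days and 2.35 at 3 days), known from brain, were also far above. Muscle markers summed to 688000 at 7 days and 437000 at 3 days in that Cy5, against 1140 to 1300 in Cy5 of the mutant pools. Markers of other tissues were above the reference there too. The median log2 ratio was 4.35 at 7 days and 4.93 at 3 days for liver, and 4.37 and 3.93 for adipose tissue. It was 1.54 and 2.12 for red cells, and 1.22 and 1.14 for macrophages. Hk2 was well above background only in this Cy5, through which it had passed the filter (mean signal 103, against a background reading of 79.1 in Cy5 of the mutant arrays).

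**Figure D5:**
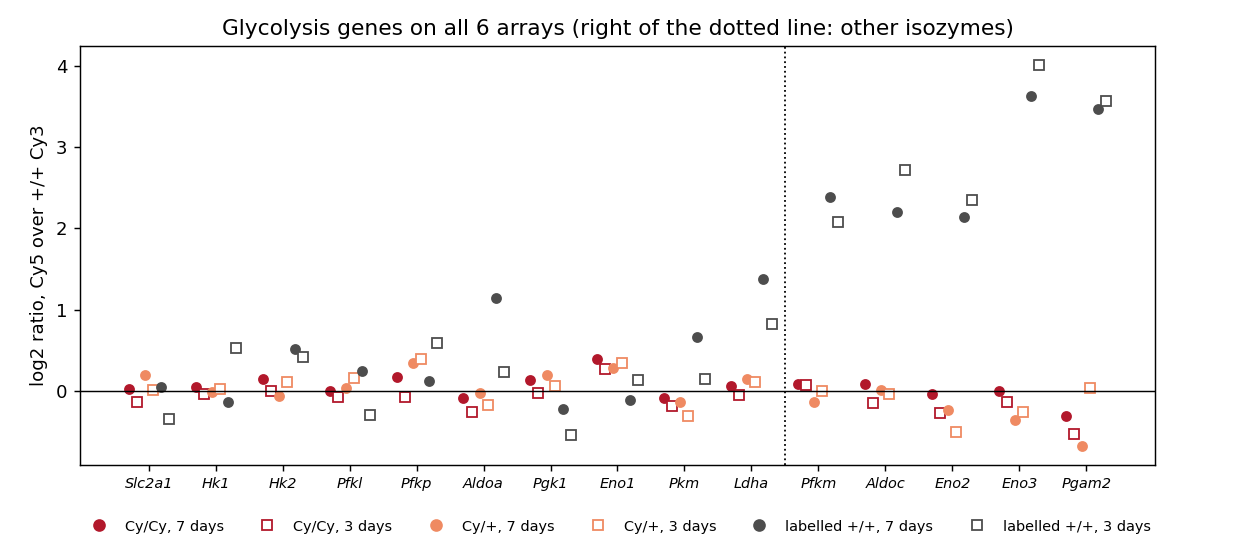
Log2 ratio of Cy5 to the Cy3 +/+ reference on all 6 arrays for the 10 glycolysis genes and, right of the dotted line, for 5 isozymes of muscle, brain and other tissues, with mutants in red and orange and the arrays labelled +/+ in grey. The arrays labelled +/+ lie 2.08 to 4.01 above their reference for the isozymes, while all mutant ratios for the 10 genes lie between -0.30 and 0.40.

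Set against these arrays in place of the reference, with age as a term, Ldha was lower by 1.09 on the log2 scale in Cy/Cy (-1.09 ± 0.17 SE, adjusted p = 0.00713, limma) and by 0.97 in Cy/+ (-0.97 ± 0.17 SE, adjusted p = 0.0105, limma). Aldoa (-0.86 in Cy/Cy and -0.79 in Cy/+) and Pkm (-0.55 and -0.63) were lower too, and Pgk1 was higher (0.44 and 0.52). This comparison called 10.6% of all probes higher and 18.4% lower in Cy/Cy, and 11% higher and 18.7% lower in Cy/+. All 4 genes passed in both genotypes, and none of them passed against the reference.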

How the data were processed

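Kidney RNA of +/+, Cy/+ and Cy/Cy rats was measured on 6 arrays with 2 colours and no dye swap, grouped by the labels (n = 2 arrays per genotype, the ages being the repeats). Precision is limited by how few arrays there are. The array product and software version of the series text differ from the headers, and the headers (Feature Extraction 9.5.1.1 by Agilent) were followed. Mean spot signal and median background were deposited as intensity, before any normalization, per the file headers. Per the file headers, the software also wrote log10 ratios of Cy5 over Cy3 after background subtraction and dye normalization. The deposited series table matched those log10 ratios (largest difference 0), with a median of -0.0159 for +/+ at 3 days and 0 on every other array. The p-value that the software gives each spot, deposited per the file headers, was not used.

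Signals were corrected with normexp (offset 50) and normalized by loess within arrays in limma 3.58.1 (R 4.3.3), with control and outlier-flagged spots (125 to 192 per array) at weight 0 and spots of a probe averaged. Probes well above background in either colour on at least 2 arrays were kept (30902 of 41012). Cy5 over Cy3 was tested against 0 with lmFit and eBayes on the 4 mutant arrays (2 residual degrees of freedom, prior 4.64), which leaves out the reference's own spread. The difference between ages was fitted on single-colour log2 values after Aquantile, with the pool as a block (2 residual degrees of freedom, prior 3.96). P-values were adjusted by Benjamini-Hochberg over all probes tested, with 0.05 as threshold. The Cy3 comparison of ages has no test. On simulated data (30874 probes) the ratio step called 31 of 50 probes changed by 1 on the log2 scale and the age step 21 of 50. For a change of 0.5 the ratio step called 8 of 50 and the age step 1 of 50. Few of the simulated probes were changed, while in these data 2497 probes were called in Cy/+ and 3022 with age. The adjusted threshold is looser where more probes change, so these simulated shares do not give the recovery in these data.

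The brightest probe stands for a gene. All 10 genes are named with every probe. Of each other list, the genes past the threshold are named, up to 6 by size, or the 2 with the largest change where none passed. The members and lists were chosen with earlier results of these data known. Motifs and probe sequences were read by exact match. One gene of the other glycolysis list counts in its totals and is not reported here by itself.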

Additional observations from a re-analysis of the deposited data

Results flagged for a closer look

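Aldoc, an aldolase known from brain, lay above the reference on both 7-day mutant arrays (0.09 in Cy/Cy and 0.01 in Cy/+) and below it on both 3-day ones (-0.15 in Cy/Cy and -0.04 in Cy/+), a difference of 0.14 on the log2 scale. Max, the partner of Myc proteins, did the opposite (-0.11), though its 3-day Cy/Cy value was 0 after rounding. These were picked out because both arrays of one age moved one way and both of the other age the opposite way, and the differences were not tested. Other genes of the lists split by age in this way with wider gaps, so Aldoc and Max do not stand out by it. Bnip3 read 0.28 in Cy/Cy and 0.55 in Cy/+ at 7 days, against -0.24 and -0.16 at 3 days. Pdk4 read 0.18 and 0.25 at 7 days, against -0.24 and -0.31 at 3 days. With 1 slide per age, age and slide cannot be told apart.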

How the results depend on the processing

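The labels give no replicate numbers, and the age served as the block. In Cy/Cy 2 probes were called, against 0 with the software's log ratios or no background correction, 13241 with median centring without loess (76.6% higher), 15 with the replicate block for age (Fbp1 among them, and none of the 10 glycolysis genes) and 8946 as a difference from the arrays labelled +/+ (36.5% higher). In Cy/+ 2497 were called (58.6% higher), against 0 with the software's log ratios, 15377 with median centring (80.3% higher), 925 with scale normalization, 4893 with the replicate block (Eno1 then passed at an adjusted p of 0.0392) and 9158 as a difference from the arrays labelled +/+ (37.1% higher). Between Cy/Cy and Cy/+ median centring called 9. Leaving out 1 array gave 0 to 74 calls in Cy/Cy, 825 (without Cy/+ at 3 days) to 3280 (without Cy/+ at 7 days) in Cy/+ and 0 to 216 between them. With age 3022 were called (55.8% higher), against 21886 with no normalization between arrays (0.854% higher), 1183 with no replicate block for the pool, and 0 to 5718 leaving out 1 pool, from 0 without the reference and 191 without Cy/Cy to 5718 without Cy/+. The Cy3 rule called 163 probes at 2-fold and 1110 at 1.5-fold.

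With median centring Slc2a1 in Cy/Cy turned to 0.39, Pkm to 0.38 in Cy/Cy and 0.41 in Cy/+, Aldoa to 0.44 in Cy/Cy and 0.66 in Cy/+, and G6pc in Cy/+ to 0.04. Against the arrays labelled +/+, Ldha turned to -1.09 in Cy/Cy and -0.97 in Cy/+, Slc2a4 to -2.53 and -1.96, Slc16a1 to -0.86 and -0.56, and G6pc to 0.55 and 0.12. There Mycl1 (-1.09) and Ndrg1 (1.46) turned in Cy/Cy, and Vegfa (0.10), P4ha1 (-0.09) and Ccnb1 (-0.08) in Cy/+. With no normalization between arrays Pgk1 (-0.51), Pdha1 (-0.22), Epas1 (-0.01) and Ccnb1 (-0.02) turned with age. The cause was not tested. The falls of Slc2a1 and Aldoa with age passed in 8 of 10 alternatives and that of Pfkp in 7 of 10, losing the call also with no replicate block (adjusted p = 0.0977, limma).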
